A study of Mus musculus with 6 samples.

Results

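The guanylate-binding proteins and the immunity-related GTPases are interferon-inducible enzymes of cell-autonomous immunity, and 10 of their genes were followed here in bone marrow neutrophils: Gbp2, Gbp3, Gbp5, Gbp7, Gbp9, Irgm1, Irgm2, Igtp, Iigp1 and Ifi47. Members were taken by symbol from the 47561 rows of the deposited tables, and all 10 were found. The 6 libraries came from male wild-type (WT) mice, 3 from Control animals and 3 from animals put through chronic unpredictable mild stress (CUMS), a sequence of changing mild stressors lasting 4 weeks that is used to produce depression-like behaviour. Neutrophils were sorted by flow cytometry. The sources used here do not give strain, age, the gate of the sort or the number of animals behind a library. P-values therefore measure only the spread among these samples, which may be technical. The comparison asks whether this family, read as an output of interferon-γ-type signalling, differs between the groups.

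Guanylate-binding proteins are large GTPases that assemble on vacuoles holding intracellular microbes and on cytosolic bacteria, where they help open the compartment and bring inflammasome components to bacterial lipopolysaccharide. The immunity-related GTPases fall into regulators (Irgm1, Irgm2 and Igtp, the last also called Irgm3), which sit on host membranes and hold the others inactive, and effectors (Iigp1, Ifi47 and relatives such as Gm12250, also called Irgb10), which load onto the microbial vacuole. Interferon-γ drives their transcription through its receptor (Ifngr1 and Ifngr2), the kinases Jak1 and Jak2, and GAS elements in their promoters. IRF proteins act on ISRE elements, which type I interferons use as well.

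The libraries held between 78845457 and 109757558 estimated counts, about 19711364 to 27439390 read pairs. All 12 neutrophil markers were detected in every library, with a summed level of 127450 to 138692 CPM (counts scaled to the library total by the TMM method) in Control and 108714 to 134734 CPM in CUMS. Among them Mmp9 rose (log2 fold change 0.12) and the granule genes Ltf and Camp fell by 0.11 and 0.27 (edgeR adjusted p = 0.038, 0.044 and 0.046), with 2 higher and 5 lower at an unadjusted p under 0.05. The part of this shift in the GTPase result was not tested. CUMS replicate 1 stood apart from its group. Its chi-square per degree of freedom over genes was 14.0 and 10.5 against CUMS replicates 2 and 3, which were at 4.10 from each other. Against Control replicates 1 to 3 it was 11.2, 9.22 and 10.3, each below the 14.0 against CUMS replicate 2. Control replicate 1 also stood apart, at 7.10 and 9.04 from Control replicates 2 and 3, which were at 4.17 from each other. Without CUMS replicate 1, 2 GTPase genes were called (Gbp9 and Irgm1). With edgeR, 372 of 15778 genes tested were higher in CUMS (2.36%) and 338 lower (2.14%) at an adjusted p of 0.05, or 4.50% in either direction.

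The CUMS libraries held more transcript of 5 of the 9 GTPase genes that could be tested (Ifi47, Gbp9, Igtp, Irgm1 and Gbp7). Of all genes, 2.36% were called higher and 4.50% in either direction. At an unadjusted p under 0.05, 7 of the 9 were higher, against 8.49% of all genes. The rises were small, from 1.18-fold for Gbp7 to 1.52-fold for Ifi47. None of the 9 fell, either by edgeR's adjusted p, at an unadjusted p under 0.05 or by DESeq2 (0 genes in each case). The remaining 4 tested members, Gbp2, Irgm2, Gbp5 and Gbp3, did not pass the threshold, and Iigp1 had too few counts to be tested. Over the 9 tested genes the median log2 fold change was 0.31, against -0.0073 over all genes tested. In 7 of the 9, every CUMS library lay above every Control library, as in 11.5% of all genes tested. Groups that did not overlap, in either direction, made up 22.9% of all genes. The summed level of the 10 genes was 280.5, 272.9 and 275.9 CPM in Control replicates 1 to 3 and 349.8, 330.1 and 337.2 CPM in CUMS replicates 1 to 3. The CUMS sums were thus 1.23-fold higher on average, with no overlap between the groups. In these bulk samples, a change in the share of cells of a type and a change in RNA per cell cannot be told apart.

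**Figure D1:**
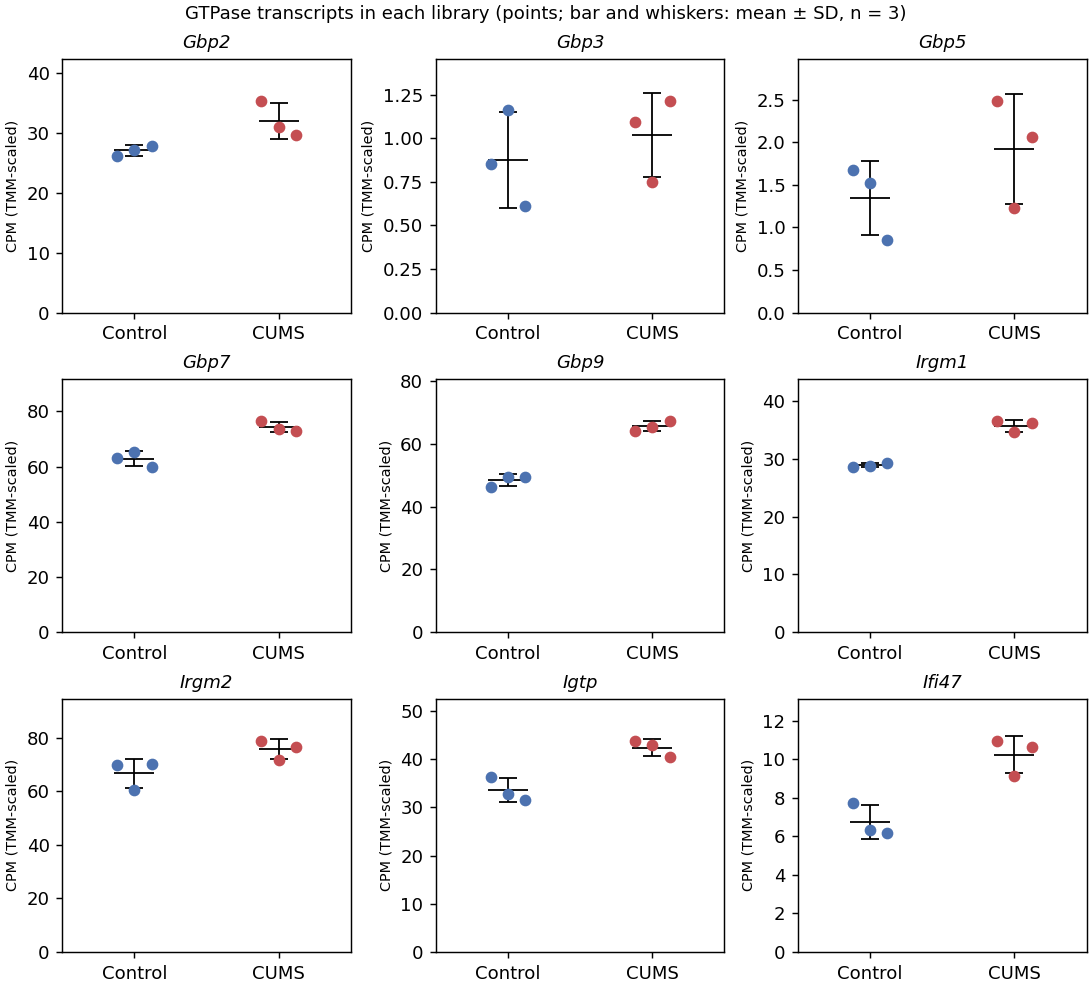
TMM-scaled CPM (vertical axes, starting at 0) of the 9 GTPase genes that passed the filter on low values, in 3 Control and 3 CUMS libraries. Points are libraries, bars are means and whiskers SD. The groups are apart for every gene shown except Gbp3 and Gbp5, which have about 1 to 2 CPM.

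Leaving out 1 library at a time changed which members were called. Gbp9 alone kept its call without each of the 6 libraries in turn. The Ifi47 call held without Control replicate 1 or CUMS replicate 2 and ended without any other library. That of Igtp held without Control replicate 1 or CUMS replicate 3, and that of Irgm1 without CUMS replicate 1 or CUMS replicate 2. Gbp7 kept its call without Control replicate 2 only. The count of members called was 3 without Control replicate 1 or CUMS replicate 2, 2 when Control replicate 2 or either of CUMS replicates 1 and 3 was left out, and 1 without Control replicate 3. The calls over all genes also thinned, to between 145 and 353 higher in CUMS. The log2 fold changes moved little in the 5 called genes, and every tested member stayed above 0 in each of these fits.

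**Figure D2:**
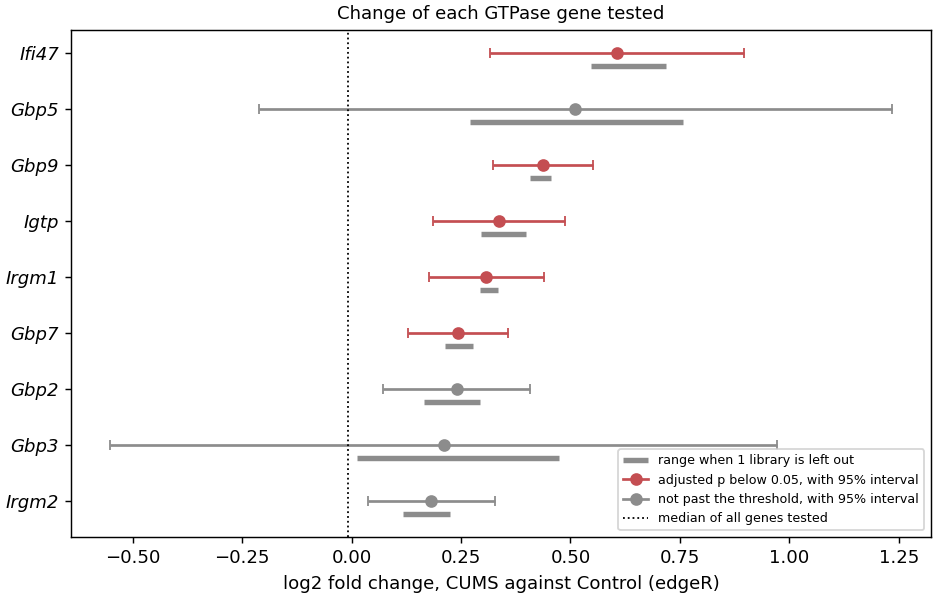
Log2 fold change of CUMS against Control (horizontal axis) for the 9 GTPase genes tested with edgeR, ordered by size. Points carry 95% intervals, grey bars give the range over the 6 fits that each leave out 1 library, and the dotted line is the median of all genes tested. Every estimate lies above 0, and the intervals of Gbp3 and Gbp5 cross it.

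Promoters of the members were searched for the elements through which interferons are known to act, GAS and ISRE. RefSeq promoter windows (GRCm38.p6, 250 bases before to 50 after an annotated start) were found for 8 of the 10 members (not Gbp9 and Iigp1), 9 windows in all because Gbp3 has 2. The motifs were GAS (TTCNNNGAA, the same on either strand) and an ISRE core (GAAA, any 2 bases, then GAAA, on either strand). An ISRE core was present in 7 of the 9 windows and in 3.44% of all 32851 promoter windows. GAS was present in 4 of the 9 and in 8.30% of all. The 2 windows with neither motif were that of Ifi47, the member with the largest change, and the second start of Gbp3. The Ifi47 window surrounds the first base of its 20388-base annotated span, which lies within that of Olfr56. Ifi47 has 5 annotated coding transcripts, and no other start of it was searched. Whether the start in this window is used in neutrophils was not tested. The 6 windows below are shown because they cover 4 of the genes called (Gbp7, Irgm1, Igtp and Ifi47) and, beside them, 2 that were not (Gbp2 and Irgm2). Matches are in capitals, and GAS and ISRE matches did not overlap each other.
Gbp7, chr3:142530086-142530385 (+): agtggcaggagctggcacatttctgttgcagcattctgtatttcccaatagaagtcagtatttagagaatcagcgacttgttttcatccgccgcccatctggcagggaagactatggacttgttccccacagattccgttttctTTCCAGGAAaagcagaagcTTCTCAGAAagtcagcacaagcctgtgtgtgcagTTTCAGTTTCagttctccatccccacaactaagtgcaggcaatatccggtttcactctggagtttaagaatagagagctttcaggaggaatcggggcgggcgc
Gbp2, chr3:142620413-142620712 (+): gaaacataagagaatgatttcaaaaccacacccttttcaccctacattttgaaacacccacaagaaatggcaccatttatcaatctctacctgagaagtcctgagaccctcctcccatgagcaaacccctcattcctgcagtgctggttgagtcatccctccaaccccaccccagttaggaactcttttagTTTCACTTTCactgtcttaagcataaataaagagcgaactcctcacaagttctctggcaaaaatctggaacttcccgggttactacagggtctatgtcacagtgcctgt
Irgm1, chr11:48871371-48871670 (-): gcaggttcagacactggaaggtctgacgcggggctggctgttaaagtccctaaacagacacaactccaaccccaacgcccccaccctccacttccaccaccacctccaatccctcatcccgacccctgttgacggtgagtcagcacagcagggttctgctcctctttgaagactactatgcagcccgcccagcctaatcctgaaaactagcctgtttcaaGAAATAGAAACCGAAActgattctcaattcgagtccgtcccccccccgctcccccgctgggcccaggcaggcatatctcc
Igtp, chr11:58199306-58199605 (+): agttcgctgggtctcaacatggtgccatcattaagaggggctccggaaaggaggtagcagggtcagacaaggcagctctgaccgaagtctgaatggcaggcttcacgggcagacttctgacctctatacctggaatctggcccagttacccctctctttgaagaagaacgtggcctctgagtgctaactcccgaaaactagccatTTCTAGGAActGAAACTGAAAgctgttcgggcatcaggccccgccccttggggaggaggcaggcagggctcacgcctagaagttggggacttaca
Irgm2, chr11:58214727-58215026 (+): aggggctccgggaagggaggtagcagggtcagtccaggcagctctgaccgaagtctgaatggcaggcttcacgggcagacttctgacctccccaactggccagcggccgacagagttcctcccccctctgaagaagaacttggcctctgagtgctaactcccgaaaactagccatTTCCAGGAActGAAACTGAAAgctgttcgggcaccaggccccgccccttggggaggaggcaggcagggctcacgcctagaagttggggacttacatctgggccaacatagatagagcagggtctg
Ifi47, chr11:49076337-49076636 (+): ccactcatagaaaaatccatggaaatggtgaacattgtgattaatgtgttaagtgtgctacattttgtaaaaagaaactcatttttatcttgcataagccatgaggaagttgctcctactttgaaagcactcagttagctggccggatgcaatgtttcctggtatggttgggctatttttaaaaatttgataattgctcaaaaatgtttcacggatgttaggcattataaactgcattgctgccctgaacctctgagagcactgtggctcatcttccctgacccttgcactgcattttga
The Gbp7 window has 2 GAS matches, beginning 106 and 87 bases before the start, and an ISRE core beginning 53 bases before it. In Gbp2 a single ISRE core begins 59 bases before the start. Irgm1 has 2 ISRE cores that overlap each other, beginning 30 and 24 bases before the start. The Igtp and Irgm2 windows share a run of 61 identical bases, and in each a GAS match begins 11 bases ahead of an ISRE core. That pair begins 45 bases before the start in Igtp and 75 bases before it in Irgm2. These matches are descriptions of sequence: none of the libraries measures binding.

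**Figure D3:**
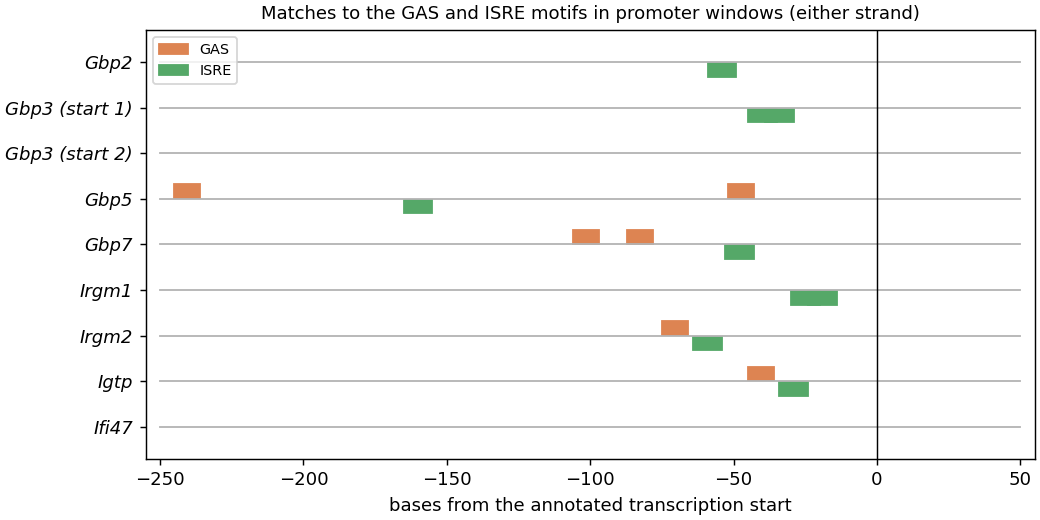
Position of GAS (orange) and ISRE (green) motif matches, on either strand, in the 9 RefSeq promoter windows of 8 GTPase genes. The horizontal axis is distance in bases from the annotated transcription start. Apart from the first GAS match and the ISRE of Gbp5 and the first GAS match of Gbp7, all matches begin within 100 bases before the start.

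Among the guanylate-binding proteins, Gbp9 changed most firmly. It measured 46.3, 49.5 and 49.6 CPM in Control replicates 1 to 3 and 64.2, 65.3 and 67.3 CPM in CUMS replicates 1 to 3. Both groups of values were tight, and all 3 CUMS libraries lay well above all 3 Control libraries. Means were 48.5 ± 1.83 CPM in Control and 65.6 ± 1.58 CPM in CUMS (SD, n = 3 each). The rise on the log2 scale was 0.44 ± 0.053 (SE; 95% interval 0.32 to 0.55; edgeR adjusted p = 7.3e-04). Gbp9 lies on the minus strand of chromosome 5 at 105077630 to 105139539 (GENCODE M21 on GRCm38), inside the annotated span of Gbp8 and overlapping Gbp4. Those neighbours measured 0.607 and 0.859 CPM in Control and 0.490 and 0.749 CPM in CUMS.

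Gbp7, which has been tied to assembly of the phagocyte NADPH oxidase, was at 63.1, 65.4 and 60.1 CPM in Control and 76.5, 73.7 and 73.0 CPM in CUMS. All CUMS values were above all Control values. Means were 62.8 ± 2.68 CPM in Control and 74.4 ± 1.88 CPM in CUMS (SD, n = 3 each; log2 fold change 0.24 ± 0.052, edgeR adjusted p = 0.022). Of the 150-base windows of its longest coding transcript, 8.93% occur unchanged in the processed pseudogene Gm43802. That pseudogene is annotated on the same strand over 637 bases inside Gbp7. The shared windows are thus the same bases under both names, not a separate copy. No deposited row was found under the symbol Gm43802.

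Gbp2, a member recruited to the vacuoles of intracellular parasites, had a fold change of the same size but a wider spread. It measured 26.2, 27.2 and 27.9 CPM in Control and 35.3, 31.0 and 29.7 CPM in CUMS. The groups did not overlap, but CUMS replicate 3 exceeded the highest Control library only 1.06-fold. The log2 fold change was 0.24 ± 0.076 (95% interval 0.07 to 0.41) with an edgeR adjusted p of 0.12, whereas DESeq2 gave 0.25 with an adjusted p of 0.048. Gbp5, which promotes NLRP3 inflammasome assembly, and Gbp3 were near 1 CPM, the deposited counts running from 72 to 157 and from 52 to 120 in Control and from 136 to 223 and from 83 to 131 in CUMS. Their groups overlapped, with log2 fold changes of 0.51 (95% interval -0.21 to 1.23) for Gbp5 and 0.21 (-0.55 to 0.97) for Gbp3. At this depth a change as large as that of Gbp9 could not be told from none in either gene. Gbp5, Gbp7, Gbp3 and Gbp2 lie in that order on the plus strand of chromosome 3 between 142493978 and 142638008 (GRCm38).

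Of the 3 regulators among the immunity-related GTPases, 2 rose. Irgm1, needed for control of mycobacteria and for haematopoietic stem cell upkeep during infection, measured 28.6, 28.7 and 29.3 CPM in Control and 36.5, 34.5 and 36.1 CPM in CUMS. Its Control libraries differed by less than 1 CPM, and all CUMS libraries were higher. Means were 28.9 ± 0.353 CPM in Control and 35.7 ± 1.05 CPM in CUMS (SD, n = 3 each; log2 fold change 0.31 ± 0.060, edgeR adjusted p = 0.014). Igtp was at 36.4, 32.8 and 31.5 CPM in Control and 43.8, 42.9 and 40.4 CPM in CUMS, again without overlap. Its log2 fold change was 0.34 ± 0.069 (95% interval 0.19 to 0.49; edgeR adjusted p = 0.018). Irgm2, at 69.6, 60.3 and 70.0 CPM in Control and 78.8, 71.5 and 76.6 CPM in CUMS, had the highest mean CPM of the members, although Gbp7 was higher in Control replicate 2 and CUMS replicate 2. Control replicate 2 was its lowest library, and the lowest CUMS library was only 1.02 times the highest Control library. The log2 fold change of 0.18 ± 0.066 (95% interval 0.04 to 0.33) did not pass (edgeR adjusted p = 0.17). Irgm1 lies on chromosome 11 at 48861968 to 48871683. Igtp (58199556 to 58207591) and Irgm2 (58199618 to 58222782) are annotated on the same strand and share 7974 bases, so reads in the common part can be split between them. In sequence, 0.854% of the 150-base windows of Igtp occur in Irgm2 transcripts.

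Of the effectors, Ifi47 rose and Iigp1 was too scarce to test. Ifi47, also called Irgd, measured 7.75, 6.31 and 6.15 CPM in Control and 11.0, 9.14 and 10.6 CPM in CUMS. The lowest CUMS library was 1.18 times the highest Control library. Means were 6.74 ± 0.882 CPM in Control and 10.2 ± 0.970 CPM in CUMS (SD, n = 3 each; log2 fold change 0.61 ± 0.13, 95% interval 0.32 to 0.90, edgeR adjusted p = 0.024). Ifi47 lies on chromosome 11 at 49076587 to 49096974, within the span of the olfactory receptor gene Olfr56, which had at most 8 counts in any library. Iigp1, on chromosome 18 at 60376027 to 60392634, was all but absent. Control libraries held 0, 5 and 0 deposited counts and CUMS libraries 0, 4 and 16, against a floor of 12 counts (3 read pairs) per library, and no fold change is given. The 95% intervals of the tested members overlap, some only narrowly. That of Irgm2 ended at 0.327, while those of Ifi47 and Gbp9 began at 0.316 and 0.322. Differences in response between members were not tested.

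Divided by the length of the longest coding transcript, the Control levels were ordered Irgm2 (18.9 ± 1.56 CPM per kb, SD, n = 3), Igtp (16.6 ± 1.25), Irgm1 (12.8 ± 0.156), Gbp7 (11.2 ± 0.477), Gbp9 (11.1 ± 0.418), Gbp2 (10.8 ± 0.337), Ifi47 (3.80 ± 0.497), Gbp5 (0.440 ± 0.143), Gbp3 (0.327 ± 0.102) and Iigp1. Neighbours whose Control libraries overlapped on this scale were Irgm2 with Igtp, Gbp7 with Gbp9, Gbp9 with Gbp2, and Gbp5 with Gbp3. Irgm1 fell to sixth place in Control (4.97 ± 0.061 CPM per kb) when all annotated exons, 5810 bases in place of 2259, were used as its length. The order of Gbp7 and Gbp9 in CUMS also depended on the length: 13.3 ± 0.336 against 15.0 ± 0.360 CPM per kb of the longest coding transcript, and 13.3 ± 0.336 against 12.7 ± 0.305 CPM per kb of all annotated exons. So did that of Igtp and Irgm2 in CUMS, Igtp being first per kb of all exons and second otherwise, with overlapping libraries in each case.

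Related GTPases outside the 10 were measured too. Of 21 relatives in the files, 15 passed the filter, and 1 of them, Gm12250, rose with edgeR (6 with DESeq2). None fell with either tool. At an unadjusted p under 0.05, 8 were higher and 0 lower, against 8.49% of all genes higher. In the same 8 of the 15 every CUMS library lay above every Control library, as in 11.5% of all genes tested. The 8 were Gm12250, Tgtp2, Gvin1, Gvin2, Gvin3, Gm8995, 9930111J21Rik1 and 9930111J21Rik2. The last 2 share 57.7% and 36.1% of their 150-base windows with other genes, each other among them, so their values are not independent. Gvin1 shares 96.2% of its windows with other genes. No such share was obtained for Gvin2, Gvin3 or Gm8995, so the 8 cannot be read as independent of each other. Gm12250, the Irgb10 effector gene, which helps expose bacterial ligands to inflammasomes, measured 4.95, 4.07 and 3.73 CPM in Control and 9.70, 6.92 and 7.49 CPM in CUMS. Its groups were far apart, CUMS replicate 1 being the highest library. Means were 4.25 ± 0.625 CPM in Control and 8.04 ± 1.47 CPM in CUMS (SD, n = 3 each; log2 fold change 0.92 ± 0.17, edgeR adjusted p = 0.0093). Without Control replicate 2, or without Control replicate 3, it was no longer called (edgeR adjusted p up to 0.053). The other relatives were not called, among them the effector genes Tgtp1 and Tgtp2, at log2 fold changes of 0.30 ± 0.31 and 0.53 ± 0.24. Tgtp1 and Tgtp2 share 74.1% and 71.7% of their 150-base windows with other genes, so the value of each is uncertain. The very large GTPase genes Gvin1, Gvin2 and Gvin3 had log2 fold changes of 0.19, 0.20 and 0.15 (edgeR adjusted p = 0.098, 0.080 and 0.15). The median over the 15 relatives was 0.23, the value of 9930111J21Rik1.

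Upstream of the family, transcript of the cytokine itself was essentially absent in these sorted cells, and its receptor transcripts did not rise. Interferon-γ protein, and any made by other cells of the marrow, was not measured. Ifng had 3, 4 and 0 deposited counts in Control and 0 in every CUMS library, all under the floor of 12. Ifngr1 measured 110 ± 5.81 and 100 ± 3.28 CPM (SD, n = 3 each; log2 fold change -0.14, 95% interval -0.25 to -0.03, edgeR adjusted p = 0.18), and Ifngr2 161 ± 3.97 and 156 ± 4.86 CPM (-0.05, -0.15 to 0.04, adjusted p = 0.63). The median log2 fold change over the 16 genes of this signalling list that were tested was 0.04. Jak1, at 655, 662 and 703 CPM in Control and 751, 762 and 758 CPM in CUMS, rose by 0.17 ± 0.038 (edgeR adjusted p = 0.028). That call held without Control replicate 3 or CUMS replicate 1 and ended without any other library (adjusted p up to 0.13). The kinase gene Jak2 had a log2 fold change of -0.04 (edgeR adjusted p = 0.76).

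Downstream factors and brakes of the pathway were mixed. Irf1, an interferon-induced activator of transcription, was higher in each CUMS library (165, 165 and 163 CPM in Control, 187, 180 and 179 CPM in CUMS) but did not pass with edgeR (log2 fold change 0.15 ± 0.040, adjusted p = 0.064). It was called in 3 of 15 alternatives: DESeq2 (adjusted p = 0.0046), voom with quality weights (0.041) and a filter at a mean of 1 CPM (0.048). Irf8, a factor of the monocytic lineage, was low (2.86 and 3.74 CPM, log2 fold change 0.39 ± 0.20, edgeR adjusted p = 0.35). Socs1, the inhibitor that interferon-γ induces, was at 2.37 and 2.55 CPM (0.11 ± 0.21, adjusted p = 0.87). Socs3, an inhibitor better known for restraining G-CSF and IL-6 receptors, fell from 108, 120 and 114 CPM in Control to 77.6, 77.5 and 80.6 CPM in CUMS. The groups were far apart, and the log2 fold change of -0.54 ± 0.052 (edgeR adjusted p = 1.7e-04) kept its call without each library in turn.

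Among other targets of interferon-γ, 7 of 31 tested rose and 0 fell with edgeR (8 and 0 with DESeq2). At an unadjusted p under 0.05, 10 were higher and 1 lower, Upp1 (log2 fold change -0.23). The median log2 fold change was 0.14, and 23 of the 31 were positive. Among the others were Gch1 (-0.26) and, each under 1 CPM, Ido1 (-1.33), Nos2 (-1.05) and Fcgr1 (-0.85), none of them called. In Ido1 every CUMS library lay below every Control library. The 7 include 5 genes of the class I antigen presentation pathway, while 7 further class I genes of the list (B2m, Tap2, Tapbp, Psmb8, Psmb10, Psme1 and Psme2) were not called, with log2 fold changes from 0.0064 for Psme1 to 0.20 for B2m. Nlrc5, the transactivator of class I genes, rose from 18.2, 18.8 and 18.3 CPM in Control to 30.2, 34.3 and 31.8 CPM in CUMS (log2 fold change 0.80 ± 0.071, edgeR adjusted p = 9.0e-05). H2-K1, a classical class I heavy chain, rose from 408 ± 14.4 to 702 ± 11.1 CPM (0.79 ± 0.039, adjusted p = 2.2e-06), and H2-D1 by 0.22 ± 0.031. These class I genes have close paralogs with which reads could be shared. The peptide transporter gene Tap1 rose by 0.36 ± 0.045 and the immunoproteasome gene Psmb9 by 0.23 ± 0.058 (edgeR adjusted p = 0.0010 and 0.049). The other 2 were Cd274, which encodes the checkpoint ligand PD-L1 (0.49 ± 0.093, adjusted p = 0.012), and Parp14 (0.25 ± 0.061, adjusted p = 0.039). Psmb9 lost its call in each of the 6 fits that leave out a library, Parp14 in all but that without Control replicate 2, and Cd274 without Control replicate 3 or CUMS replicate 3.

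No class II gene or interferon-γ chemokine of the list was called, and the difference from the class I genes was not tested. Ciita, the class II transactivator, measured 0.801 ± 0.184 and 1.02 ± 0.078 CPM (SD, n = 3 each; log2 fold change 0.35, 95% interval -0.33 to 1.04, edgeR adjusted p = 0.66). The class II genes H2-Aa, H2-Ab1, H2-Eb1, Cd74 and H2-DMa had log2 fold changes of 0.04, 0.25, 0.04, 0.08 and -0.09, with edgeR adjusted p between 0.71 and 0.96. Cxcl10 was at 0.595 and 0.737 CPM (0.31, 95% interval -0.53 to 1.14). Cxcl9 had 7, 24 and 0 counts in Control and 0, 4 and 0 in CUMS. A rise of the size measured for Gbp7, 0.24, lies within the 95% intervals of Ciita, Cxcl10, H2-Aa, H2-Ab1, H2-Eb1, Cd74 and H2-DMa.

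Genes more usually read as targets of type I interferon moved as well, so the GTPase genes were not alone. Of 28 type I effector genes tested, 8 rose and 0 fell with edgeR (13 and 0 with DESeq2, 17 higher and 1 lower at an unadjusted p under 0.05), with a median of 0.15. The 8 were Ifit3, Ifit3b, Rsad2, Oasl2, Zbp1, Ifit1, Xaf1 and Ifi27l2a. Ifit3 had 34.0, 33.3 and 32.7 CPM in Control and 52.6, 54.3 and 52.3 CPM in CUMS. Ifit3b, a close paralog with which it may share reads, rose by 0.55 ± 0.061. Zbp1, a nucleic acid sensor gene, rose by 0.46 ± 0.086. Ifit3, Ifit3b, Rsad2 and Oasl2 were called without each library in turn. Zbp1 was not called without Control replicate 3, Ifit1 was called only without CUMS replicate 1 or without CUMS replicate 2, Ifi27l2a only without Control replicate 1, and Xaf1 in none of these 6 fits. Of 8 type I receptor and signalling genes tested, 0 were called with edgeR (1 at an unadjusted p under 0.05, 1 with DESeq2). Ifnb1 and Ifna4 were at 0 in all 6 libraries. The share called was 5 of 9 among the GTPase genes, 7 of 31 among the interferon-γ targets and 8 of 28 among the type I effectors, against 2.36% of all genes. Differences between these shares were not tested.

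**Figure D4:**
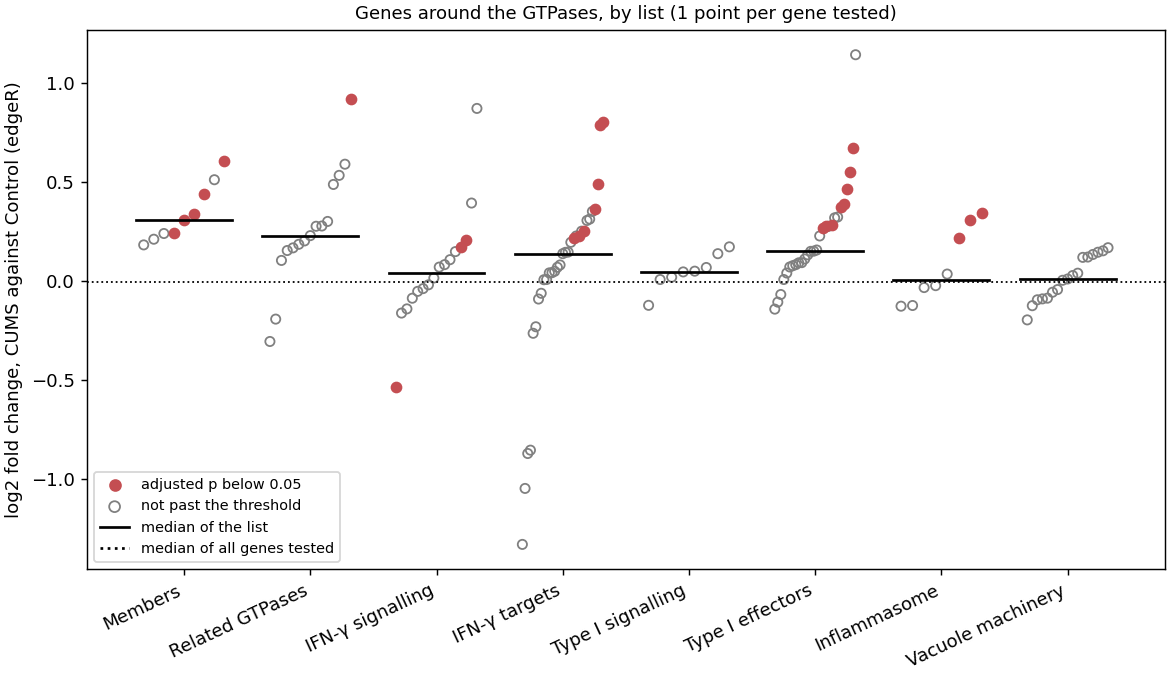
Log2 fold change of CUMS against Control (vertical axis) for each gene tested in 8 lists (horizontal axis). Filled red points have an edgeR adjusted p below 0.05 and open points do not, black bars are list medians, and the dotted line is the median of all genes tested. The GTPase members have the highest list median (0.31), followed by their relatives (0.23).

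The machinery that GTPases of this family work with at vacuoles and inflammasomes was also counted. Of 17 autophagy, ubiquitin and galectin genes tested, 0 were called with edgeR (3 higher with DESeq2), with a median of 0.01. At an unadjusted p under 0.05, 5 were higher and 2 lower, against 8.49% of all genes higher. Of 8 inflammasome genes, 3 rose and 0 fell (0 lower at an unadjusted p under 0.05 or with DESeq2), against 2.36% of all genes called higher. Their median was 0.0057, and 4 of the 8 had a positive log2 fold change. Nlrp3, a sensor gene, had 191, 191 and 188 CPM in Control and 224, 248 and 235 CPM in CUMS (log2 fold change 0.31 ± 0.045, edgeR adjusted p = 0.0026). Aim2, a DNA sensor gene, rose by 0.34 ± 0.069, and Gsdmd, which encodes the pore-forming gasdermin D, by 0.21 ± 0.053 (edgeR adjusted p = 0.017 and 0.044). Casp4, the noncanonical inflammasome caspase that guanylate-binding proteins feed, had a log2 fold change of -0.12 ± 0.064 (adjusted p = 0.37). The Aim2 call ended when Control replicate 1 or 3 or CUMS replicate 3 was left out, and that of Gsdmd when any library but CUMS replicate 1 was.

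Transcripts of other cell types moved with the groups in part. T and NK cell markers, whose cells make interferon-γ, summed to 5.40 to 7.61 CPM in Control and 5.54 to 7.14 CPM in CUMS. Of 18, 7 were tested and 0 were called (0 at an unadjusted p under 0.05 and 0 with DESeq2). Ncr1, Gzmb, Klrb1c and Eomes were under the floor in every library. Erythroid markers rose in 8 of 12 (1316 to 1887 CPM summed in Control, 2535 to 3022 CPM in CUMS). Of 12 monocyte markers, 3 rose (Csf1r, F13a1 and Fn1), with summed ranges of 779 to 839 CPM in Control and 756 to 851 CPM in CUMS. Ly6c2, which was not called, makes up 530 of the 808 CPM of this list in Control. F13a1 went from a mean of 1.21 to 3.07 CPM and Fn1 from 2.80 to 7.30 CPM. Of the 12, 9 had a positive log2 fold change (median 0.23). Of 10 B cell markers, Ighm rose (means 141 and 175 CPM in Control and CUMS), with 2 higher at an unadjusted p under 0.05. The list summed to 168 to 172 CPM in Control and 207 to 215 CPM in CUMS. All 10 had positive log2 fold changes (median 0.35). Of 8 eosinophil markers, Prg2 and Epx rose, with 5 higher at an unadjusted p under 0.05. Means in Control and CUMS were 0.885 and 4.82 CPM for Prg2 and 0.119 and 1.49 CPM for Epx. The list summed to 44.9 to 51.9 CPM in Control and 51.6 to 60.1 CPM in CUMS. All 8 eosinophil markers had positive log2 fold changes (median 1.57). Of 7 plasma cell markers, 6 were tested, Xbp1 fell and 0 rose. Xbp1 makes up 80.7 of the 86.0 CPM of this list in Control, and 4 of the 6 had a positive log2 fold change (median 0.30). Of 8 basophil and mast cell markers, Hdc fell and 0 rose with edgeR (3 lower with DESeq2, 4 lower at an unadjusted p under 0.05). All 8 had negative log2 fold changes (median -0.59), and Hdc makes up 1051 of the 1061 CPM of the list in Control and 826 of the 833 CPM in CUMS. In the dendritic cell list, which shares Bst2 and Irf8 with the lists above, 0 of 9 tested were called with edgeR (0 at an unadjusted p under 0.05, 0 with DESeq2; summed means 13.8 and 14.8 CPM), and Xcr1 was at 0 in every library. In the endothelial and stromal list it was 0 of 5 with edgeR (4 at an unadjusted p under 0.05, 1 with DESeq2). That list summed to 19.3 to 22.3 CPM in Control and 21.2 to 23.3 CPM in CUMS. The part of these cells in the GTPase result was not tested.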

How the data were processed

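The submitters' processing notes name build mm10 and, with no roles, DESeq2 2.11.40.6, featureCounts 1.6.4, HISAT2 2.1, cutadapt 1.16.5 and bcl2fastq 2.19. Per the labels' protocols, TruSeq libraries from 1 µg of total RNA were read as pairs of 150 bp. The values deposited by the authors are estimated counts, 1 whole number per gene and library with no normalization, made by a step that is not given in the sources used. In them 4, 8, 12 and 16 were in excess over adjacent numbers (1.89, 1.66, 1.41 and 1.38 times), which puts a read pair at about 4. A gene near 0 has a floor of 12 per library, the worth of 3 read pairs, for counting error only. Strandedness is not given, so reads of overlapping and antisense genes cannot be told apart.

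Of rows with the same symbol, that with most counts was kept. They were tested in R 4.3.3 with edgeR 4.0.16, with no rounding needed: filterByExpr, TMM, quasi-likelihood F test on group alone, and Benjamini-Hochberg adjustment over 15778 genes at 0.05. Every adjusted p is from that test unless another tool is named. SE and 95% intervals come from the F statistic. The script was tested on simulated data. No 2 libraries held identical values or agreed within sampling noise. Alternatives were DESeq2 1.42.0, limma 3.58.1 voom with quality weights, other scalings and filters, values divided by 4, summed rows, a replicate block and leaving out each library. All 10 members were to be named, with every gene called in 7 pathway lists (at most 8 per list) and a set of fixed pathway genes. Other genes were added after their values were seen. They are Casp4, Ido1, Nos2, Fcgr1, Gch1, Upp1, the class I and class II genes not called, the relatives not called and the type I cytokines. 1 result of the interferon-γ signalling list is not reported here. The members and lists were chosen with earlier results of these data known. Coordinates and lengths are from GENCODE M21 (GRCm38), matched by symbol, and promoters from RefSeq (GRCm38.p6).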

Additional observations from a re-analysis of the deposited data

How the results depend on the processing

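Over the 15 alternatives run, all 134 fold changes obtained for the tested members were positive. Scaling with RLE or upper quartiles, both filters, values divided by 4, voom weights and summed rows each left 5 members called. DESeq2 called 6, adding Gbp2 (log2 fold change 0.25, adjusted p = 0.048). Leaving out 1 library gave 1 to 3 members called, with fold changes of 0.21 to 0.28 for Gbp7, 0.29 to 0.33 for Irgm1, 0.30 to 0.40 for Igtp 0.55 to 0.72 for Ifi47, 0.41 to 0.46 for Gbp9, 0.16 to 0.29 for Gbp2, 0.12 to 0.22 for Irgm2, 0.27 to 0.76 for Gbp5 and 0.012 to 0.47 for Gbp3 on the log2 scale. The causes were not tested, but fewer libraries entered each fit. Over those same fits, all genes called ranged from 145 to 353 higher and 160 to 344 lower, the relatives from 0 to 1 higher, interferon-γ signalling from 0 to 2, interferon-γ targets from 4 to 6, type I effectors from 4 to 7, inflammasome genes from 1 to 3 higher and vacuole genes from 0 to 1 lower. DESeq2 called 651 genes higher, 6 relatives, 1 type I signalling gene, 13 type I effectors and 3 vacuole genes. With no filter on low values, 213 genes were lower and 1 interferon-γ signalling gene was higher, and Jak1, Psmb9, Parp14, Xaf1, Ifi27l2a and Gsdmd were not called (adjusted p 0.051 to 0.095). A mean of at least 1 CPM, and values divided by 4, gave 3 relatives and 1 type I signalling gene each, and voom weights gave 2 relatives. Socs1, not called in any fit, reversed to -0.025 without Control replicate 2. The cause of these differences was not tested.

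The labels give both groups replicate numbers 1 to 3 and do not say whether these mark a pairing or a batch. Deviations of same-numbered libraries from their group means had r = 0.0081, 0.0035 and -0.026 across genes. Pairs with different numbers ranged from -0.029 to 0.027. These correlations cannot exclude a pairing or batch by number. With a replicate block, 5 members, 3 relatives and 1 vacuole gene were called higher. In all, 500 genes were higher and 431 lower, against 372 and 338 without the block. The summed level of the members, for which the alternatives were chosen after seeing the data, was 1.21 to 1.24-fold higher without each library. Iigp1 was at or near the floor, and Gbp3 and Gbp5 had few counts and a wide spread between libraries.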
